A study of Mus musculus with 6 samples.

Results

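The genes described here are 9 members of the PI3K, AKT and mTOR pathway (Pik3cd, Pik3r1, Pik3ap1, Inpp5d, Akt1, Mtor, Rptor, Tsc1 and Tsc2) out of 21864 protein-coding genes of the mouse genome, and the question asked of each was where H3K4me1 and H3K4me3 peaks lay around it in germinal center (GC) B cells. The members were chosen by name, not by a cutoff on any measured value, but with earlier results of these data known. Around each, a peak was counted as promoter if it lay within 5 kb of a protein-coding transcription start site (TSS) of that gene, as gene body if it overlapped the rest of the gene, and as outer if it lay outside the gene and 5 to 50 kb from the nearest of its TSSs.

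The data were Mint-ChIP peak lists, 3 libraries for H3K4me1 and 3 for H3K4me3. Mint-ChIP is a form of chromatin immunoprecipitation in which barcoded chromatin from small samples is pooled before the antibody step. All 6 libraries came from spleens of mice of WT genotype collected on day 8 of a response to sheep red blood cells (SRBC), with 50000 sorted cells per library and no mutant or untreated group, so the comparison the design allows is between marks. The cell type label reads GC centrocytes, the light zone fraction, whereas the study's methods for these libraries name GC B cells, and the protocol text names an H3K27ac antibody where titles, antibody labels and methods name H3K4me1 and H3K4me3. Elsewhere in the study WT stands for mice that carry the Cγ1-cre allele, and whether these mice carried it was not stated. Nothing in the labels says that replicates came from separate mice, so the spread given here is that between libraries and may be technical.

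PI3K converts a membrane lipid into PIP3, which recruits AKT to the membrane. In B cells the p110δ catalytic subunit (Pik3cd) and the p85α regulatory subunit (Pik3r1) form the main PI3K, BCAP (Pik3ap1) is an adaptor that links the B cell receptor to it, and SHIP1 (Inpp5d) is a phosphatase that removes PIP3. AKT restrains the complex of TSC1 and TSC2, which in turn restrains mTOR complex 1, in which raptor (Rptor) presents substrates to the mTOR kinase. In GCs this pathway is known for its role in light zone B cells selected by T follicular helper cells. H3K4me3 marks active promoters, and H3K4me1 marks enhancers and the flanks of promoters.

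H3K4me1 libraries held 11922 to 24136 peaks and H3K4me3 libraries held 41936 to 46707, and replicate 1 was the largest for each mark. H3K4me1 peaks were called as narrow peaks (median width 253 to 270 bp) and H3K4me3 peaks as broad peaks (821 to 857 bp), so every difference between marks includes a difference in calling. Of 10 GC B cell marker genes, 10 had promoter H3K4me3 in all 3 libraries and 7 had promoter H3K4me1 in all 3. Promoter H3K4me3 in all 3 libraries was also seen at 3 of 6 T cell genes, 2 of 6 myeloid genes and 3 of 4 erythroid genes. It was likewise seen at 3 of 3 plasma cell genes and 2 of 4 non-immune genes, and at 56.2% of all protein-coding genes. Cd3e, Cd8a, Lyz2 and S100a8 were among the marker genes with no peak of either mark at the promoter or in the body in any library. The part of other cells in the values below was not tested.

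All 9 genes had a promoter H3K4me3 peak in all 3 libraries, against 56.2% of all protein-coding genes. Promoter H3K4me1 was found in all 3 libraries at 5 of 9 (Pik3cd, Pik3r1, Pik3ap1, Inpp5d and Akt1), against 6.17% of all genes. Mtor and Rptor each had promoter H3K4me1 in 1 library, Tsc1 in 2, and Tsc2 in none. The 9 genes are long (median 87655 bp, against 17363 bp for all genes), and several have many TSSs, so a larger stretch was searched around them than around a typical gene. The H3K4me1 count rests on weak peaks at some distance from the TSS: it was 1 of 9 when only peaks with −log10 q of at least 5 were kept and 0 of 9 within 1 kb of a TSS. The H3K4me3 count was 5 of 9 when the 10000 peaks with the best q-value of each library were used. That cut keeps a smaller part of the H3K4me3 lists than of the H3K4me1 lists. The shares of all genes at these settings are not given here, so 6.17% and 56.2% are not their background.

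Over the 9 genes, H3K4me1 replicates 1, 2 and 3 held 17, 8 and 8 promoter peaks, 37, 27 and 24 gene body peaks and 22, 15 and 10 outer peaks. H3K4me3 replicates 1, 2 and 3 held 19, 16 and 20 promoter peaks, 37, 33 and 30 gene body peaks and 35, 33 and 33 outer peaks. H3K4me1 varied more between libraries, with 56 ± 17.8 peaks in all (SD, n = 3) against 85.3 ± 4.93 (SD, n = 3) for H3K4me3. The map of peak counts gives every value by gene, and the gene body counts of the 2 marks overlapped, at 24 to 37 for H3K4me1 and 30 to 37 for H3K4me3.

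**Figure D1:**
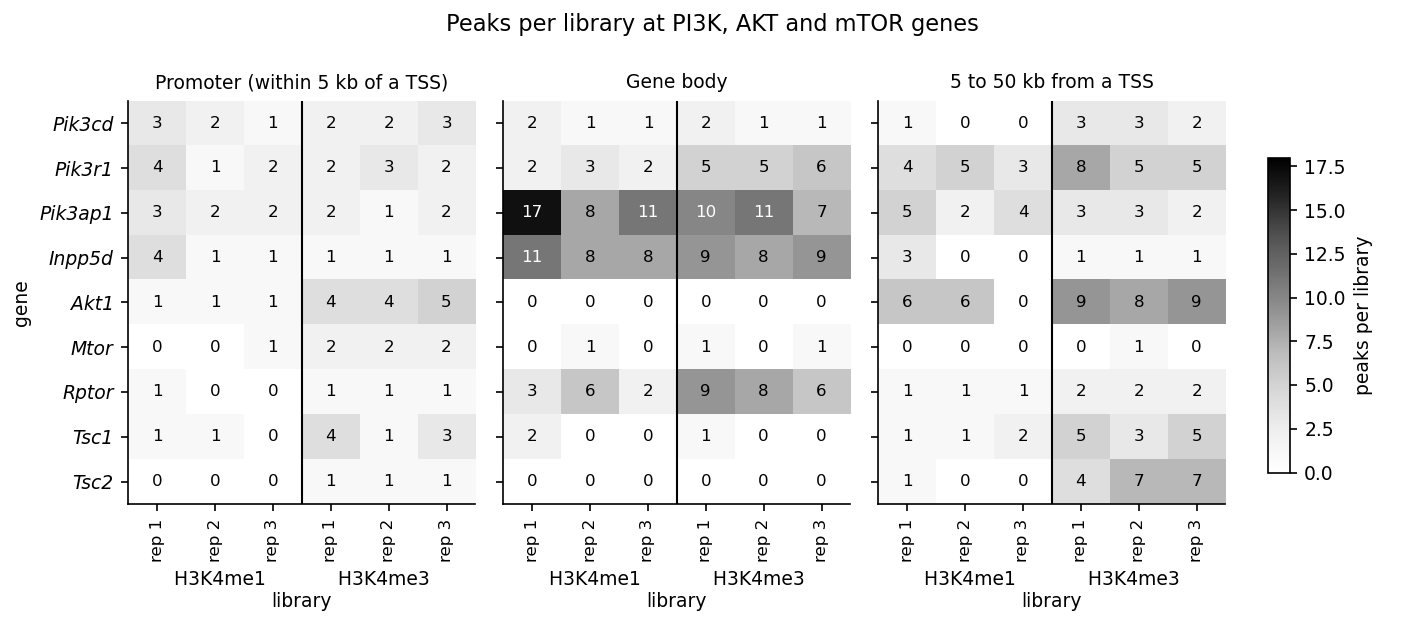
Number of peaks per library at each of the 9 genes (rows) in the promoter, the gene body and 5 to 50 kb away (panels), with 3 H3K4me1 and 3 H3K4me3 libraries as columns and darker shading for more peaks. Pik3ap1 and Inpp5d hold most gene body peaks, with 8 to 17 H3K4me1 and 7 to 11 H3K4me3 peaks per library, whereas Akt1 and Tsc2 hold 0.

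The promoter window covered by H3K4me3 was longer than that covered by H3K4me1 in every pair of libraries at 9 of 9 genes, which 55.8% of all genes also showed. These were 12193 genes, where 12286 had promoter H3K4me3 in all 3 libraries, and 0 genes showed the reverse. With broad calling for H3K4me3 and narrow calling for H3K4me1, the comparison adds little to the presence of promoter H3K4me3. With 3 libraries per mark the two-sided exact permutation test cannot go below p = 0.1, and each of the 9 genes had this value (adjusted p = 0.179 over 21864 genes, Benjamini-Hochberg), so none passed 0.05. In order of mean H3K4me3 cover, Pik3cd (11441 ± 1306 bp, SD, n = 3) stood apart from all the others. Pik3r1 (5717 ± 553 bp), Akt1 (5313 ± 1631 bp), Inpp5d (5114 ± 797 bp), Pik3ap1 (4180 ± 383 bp), Mtor (3413 ± 531 bp), Tsc1 (2713 ± 781 bp), Rptor (1929 ± 515 bp) and Tsc2 (1625 ± 269 bp) followed, and the ranges of each gene and the next overlapped. Over all genes the median was 1032 bp. The search window itself was widest for Pik3cd (34.8 kb, against at most 20.1 kb for the others), because its TSSs are spread along the gene.

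**Figure D2:**
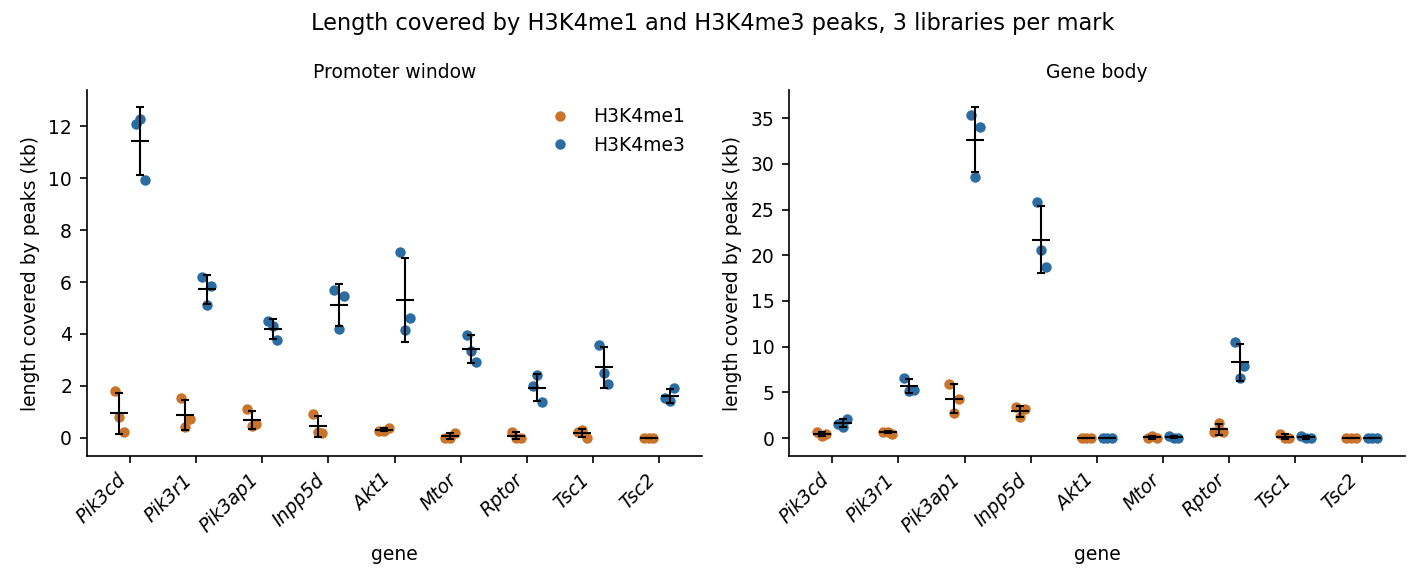
Length covered by H3K4me1 (orange) and H3K4me3 (blue) peaks in kb, in the promoter window (left) and the gene body (right) of each gene, with 1 point per library and the mean and SD over 3 libraries in black. H3K4me3 cover of the Pik3cd promoter lies at 9.94 to 12.3 kb, above every other gene, and gene body cover is highest at Pik3ap1 and Inpp5d.

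Pik3cd, the gene of the p110δ catalytic subunit (chromosome 4, minus strand, 53.4 kb), had the widest promoter H3K4me3 peak of the 9 on average and in replicates 1 and 2, while in replicate 3 that of Inpp5d was wider. Its widest H3K4me3 peak measured 10.9, 11.0 and 7.16 kb in replicates 1, 2 and 3, and 99.7% of the 12286 genes with promoter H3K4me3 in all 3 libraries had a narrower one on average. In replicates 1 and 2 a single peak spanned the merged region at chr4:149695328-149706303, while in replicate 3 it was split in 2. This region took in 4 of the 7 TSSs in all 3 libraries, namely those at 149701590, 149698708, 149698698 and 149698605. The TSSs at 149676044, 149674194 and 149663284 lie further into the gene and were covered in 0 of 3 libraries. A second H3K4me3 region, at chr4:149664814-149666119, was found in all 3 libraries and ended 1530 to 1948 bp upstream of the last of these TSSs without reaching it.

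Of the 11 H3K4me1 peaks of Pik3cd, 9 were overlapped by H3K4me3 in at least 1 library, near the 80.0% to 84.2% over all H3K4me1 peaks of a library. Promoter H3K4me1 peaks numbered 3, 2 and 1 and covered 1798, 809 and 235 bp (947 ± 791 bp, SD, n = 3). The H3K4me1 regions found most often were each in 2 of 3 libraries. At chr4:149665322-149666167, over the second H3K4me3 region, the fold enrichment over local background was 7.02 and 5.49. At chr4:149701606-149702280, 16 bp from the covered TSS at 149701590, it was 6.32 and 4.39. No H3K4me1 region of Pik3cd was found in all 3 libraries. Its outer H3K4me3 peaks included some in all 3 libraries within 5 kb of a TSS of Tmem201, 36.5 kb away, and its outer H3K4me1 peaks numbered 1, 0 and 0.

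Promoter sequences of Pik3cd are shown because covered and uncovered starts stood side by side in a single gene. Each runs from 250 bases before a RefSeq TSS to 30 after it (build GRCm38.p6, minus strand), and capitals mark CpG dinucleotides.
Pik3cd covered start, chr4:149698679-149698958: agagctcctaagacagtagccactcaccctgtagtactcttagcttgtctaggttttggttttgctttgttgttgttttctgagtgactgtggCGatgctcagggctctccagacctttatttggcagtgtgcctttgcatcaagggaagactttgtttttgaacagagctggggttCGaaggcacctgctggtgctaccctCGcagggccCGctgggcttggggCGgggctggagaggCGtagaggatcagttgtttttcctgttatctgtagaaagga
Pik3cd uncovered start, chr4:149676060-149676339: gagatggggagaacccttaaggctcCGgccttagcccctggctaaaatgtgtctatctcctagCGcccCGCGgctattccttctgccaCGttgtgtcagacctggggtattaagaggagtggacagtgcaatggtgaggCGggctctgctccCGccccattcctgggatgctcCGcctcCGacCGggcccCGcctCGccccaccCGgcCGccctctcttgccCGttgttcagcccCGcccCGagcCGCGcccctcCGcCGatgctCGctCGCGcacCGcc
Pik3cd uncovered start, chr4:149663287-149663566: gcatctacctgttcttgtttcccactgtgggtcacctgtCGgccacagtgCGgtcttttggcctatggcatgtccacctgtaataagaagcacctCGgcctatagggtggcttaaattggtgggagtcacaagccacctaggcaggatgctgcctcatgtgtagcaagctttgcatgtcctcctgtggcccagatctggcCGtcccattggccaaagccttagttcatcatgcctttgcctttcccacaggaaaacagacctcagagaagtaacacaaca
The covered start held 6 CpGs, the median of all 32851 RefSeq promoters, and the uncovered starts held 25 and 4. CpG number therefore did not follow H3K4me3 cover across these 3 windows.

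Pik3r1, the gene of the p85α regulatory subunit, has 2 counted TSSs, for a long and a short form (chromosome 13, minus strand, 87.7 kb). The start of the long form at 101768217 lay under an H3K4me3 peak in all 3 libraries. The start at 101692630 was not covered in any, and the nearest H3K4me3 peak stopped 741, 1231 and 902 bp short of it. That peak, part of the region chr13:101693371-101697223, covered the start of a further coding transcript at 101694600 in all 3 libraries. This transcript is listed in the comprehensive but not in the basic annotation, so it was not among the TSSs counted above.

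The 2 RefSeq promoters of Pik3r1 are shown in the same way (minus strand), since H3K4me3 covered the first and not the second.
Pik3r1 covered start, chr13:101768188-101768467: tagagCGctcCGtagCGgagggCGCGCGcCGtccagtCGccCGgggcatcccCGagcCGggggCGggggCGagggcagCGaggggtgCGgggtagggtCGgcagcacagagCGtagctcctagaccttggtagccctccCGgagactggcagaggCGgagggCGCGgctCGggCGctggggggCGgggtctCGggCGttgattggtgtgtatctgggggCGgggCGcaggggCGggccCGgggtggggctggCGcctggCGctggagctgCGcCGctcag
Pik3r1 uncovered start, chr13:101692601-101692880: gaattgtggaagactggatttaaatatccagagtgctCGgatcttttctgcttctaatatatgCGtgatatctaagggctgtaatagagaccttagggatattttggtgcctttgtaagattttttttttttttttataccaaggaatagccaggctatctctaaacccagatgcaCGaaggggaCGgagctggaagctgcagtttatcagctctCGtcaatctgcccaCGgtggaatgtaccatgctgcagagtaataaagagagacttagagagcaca
The covered window held 34 CpGs and was 76.8% G and C, and the uncovered window held 6 CpGs and was 41.8% G and C. The covered window also held 4 matches to the GC box GGGCGG and the other none, where 35.7% of all RefSeq promoters held a match on either strand.

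Pik3r1 had the highest share of H3K4me1 peaks found again in another library. Of its 26 H3K4me1 peaks, 19 were found again, against 82 of 168 (48.8%) over the 9 genes and 31.0% to 46.6% of all H3K4me1 peaks of a library. A region 1.36 kb into the gene, at chr13:101766503-101767210, was present in 3 of 3 libraries and lay inside the H3K4me3 region over the long form's start.

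The tallest H3K4me1 peak at the 9 genes was outside Pik3r1, past its 3′ end. At chr13:101668774-101669221 the fold enrichment was 9.12, 9.75 and 12.4 in replicates 1, 2 and 3, from 12, 12 and 16 fragments at the summit. At chr13:101663946-101664562 it was 10.3, 8.998 and 6.75, from 14, 11 and 12 fragments. Over all H3K4me1 peaks of the 9 genes the summit held 4 to 16 fragments with a median of 6, so even these 2 regions rest on small numbers. H3K4me3 peaks overlapped both in 3 of 3 libraries, and neither lay within 5 kb of another protein-coding TSS. The sequence at the tallest summit of the first is given below with those of other genes.

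Pik3ap1, the gene of the adaptor BCAP (chromosome 19, minus strand, 113 kb), has a single TSS, and its H3K4me3 promoter peak covered it in all 3 libraries with fold enrichment up to 10.01, 8.41 and 8.62. The widest promoter peak measured 4.39, 4.30 and 3.72 kb. Promoter H3K4me1 peaks numbered 3, 2 and 2, the nearest 721, 2262 and 2325 bp from the TSS, and all lay downstream of it but 1 of replicate 1, which lay 3044 bp upstream.

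The body of Pik3ap1 held the most peaks on average for both marks. H3K4me1 peaks there numbered 17, 8 and 11, and H3K4me3 peaks 10, 11 and 7. H3K4me3 covered 35.3, 28.6 and 34.0 kb of the body, or 30.3% ± 3.32 of its length (SD, n = 3), and 98.8% of the 15922 genes with at least 1 kb of body had a smaller share. H3K4me1 covered 5.92, 2.70 and 4.29 kb, or 3.99% ± 1.49. The peaks lay toward the 5′ end: the last H3K4me3 peak ended 72.0, 61.4 and 56.4 kb from the TSS of this 113 kb gene, and the widest single peak reached 14.5 kb.

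Within this stretch 4 H3K4me1 regions were found in all 3 libraries, centered 14.97, 40.4, 42.8 and 51.8 kb from the TSS, and H3K4me3 overlapped each of them in 3 of 3 libraries. The tallest was chr19:41369744-41370506, with fold enrichment of 9.82, 7.50 and 5.85. A further region in all 3 libraries, chr19:41402121-41402812, lay 17.4 kb upstream of the gene. Of the 54 H3K4me1 peaks of Pik3ap1, 48 were overlapped by H3K4me3 in at least 1 library, where 80.0% to 84.2% of all H3K4me1 peaks of a library were.

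Inpp5d, the gene of the phosphatase SHIP1 (chromosome 1, plus strand, 100.2 kb), resembled Pik3ap1. Its promoter H3K4me3 region, chr1:87619711-87627883, ran from just before the first TSS into the gene, and its widest peak measured 7327, 4204 and 7934 bp. It covered 3 of the 4 TSSs in all 3 libraries, and the start at 87676239, deep in the gene, was not covered in any and had no peak of either mark within 5 kb.

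In the body of Inpp5d H3K4me1 peaks numbered 11, 8 and 8 and H3K4me3 peaks 9, 8 and 9. H3K4me3 covered 25.8, 20.6 and 18.8 kb, or 25.5% ± 4.31 (SD, n = 3), more than at 98.2% of genes, and H3K4me1 covered 3.46% ± 0.707. All H3K4me1 body peaks ended within 42.1 kb of the first TSS. H3K4me3 reached 45.2 kb in replicate 3, and replicates 1 and 2 each had 1 further peak near the 3′ end.

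The H3K4me1 regions of Inpp5d found in all 3 libraries lay 3.85 kb and 28.9 kb from the first TSS, at chr1:87623959-87624365 and chr1:87648620-87649798. At the former the peaks of replicates 1 and 2 had the same limits and that of replicate 3 joined them at the edge, with 7 fragments at the summit in each. Pik3ap1 and Inpp5d together held 28 of 37, 16 of 27 and 19 of 24 H3K4me1 body peaks of the 9 genes, and 19 of 37, 19 of 33 and 16 of 30 H3K4me3 body peaks.

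**Figure D3:**
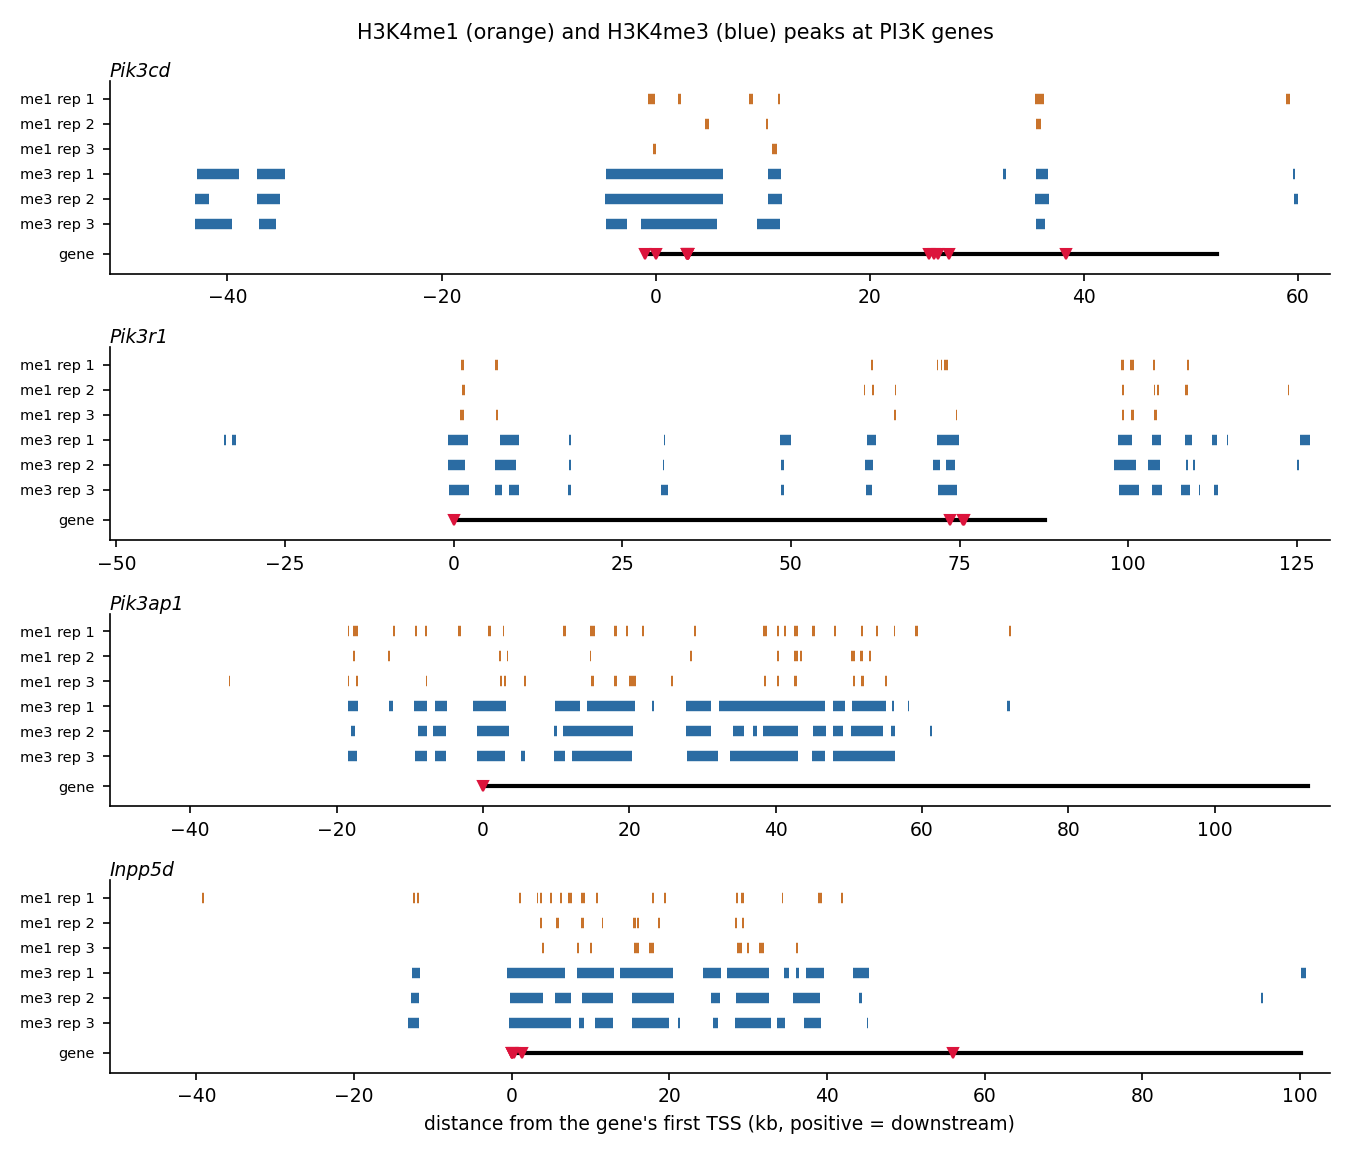
Position of H3K4me1 (orange, upper 3 rows) and H3K4me3 (blue, lower 3 rows) peaks in each library around Pik3cd, Pik3r1, Pik3ap1 and Inpp5d, by distance from the first TSS in kb, with the gene as a black line and TSSs, including those of the comprehensive annotation, as red triangles. H3K4me3 spreads over the 5′ part of Pik3ap1 and Inpp5d with many H3K4me1 peaks inside it, and the Pik3cd promoter lies under peaks up to 11.0 kb wide.

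The sequence at the tallest H3K4me1 summit is shown for 5 genes, each at the region found in most libraries and then highest in summed fold enrichment. Each window has 300 bases centered on the summit (build GRCm38, plus strand as printed), and capitals mark matches on either strand to 7 searched motifs: PU.1 GAGGAAGT, octamer ATTTGCAT, RUNX TGTGGTT, E-box CAGGTG, NFY CCAAT, GC box GGGCGG and CRE TGACGTCA.
Pik3r1, past the 3′ end, chr13:101668862-101669161: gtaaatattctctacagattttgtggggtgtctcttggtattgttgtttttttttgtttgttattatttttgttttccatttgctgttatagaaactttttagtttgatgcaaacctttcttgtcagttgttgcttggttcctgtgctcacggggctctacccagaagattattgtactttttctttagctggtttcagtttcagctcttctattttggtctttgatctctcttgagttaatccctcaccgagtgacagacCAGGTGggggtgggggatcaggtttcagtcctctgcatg
Pik3ap1, intron, chr19:41370238-41370537: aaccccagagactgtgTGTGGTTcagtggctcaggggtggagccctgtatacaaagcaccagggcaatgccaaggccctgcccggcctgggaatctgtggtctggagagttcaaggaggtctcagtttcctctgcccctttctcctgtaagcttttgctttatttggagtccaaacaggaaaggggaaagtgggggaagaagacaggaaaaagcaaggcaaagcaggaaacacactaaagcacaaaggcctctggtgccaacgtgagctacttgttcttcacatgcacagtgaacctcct
Rptor, upstream, chr11:119589177-119589476: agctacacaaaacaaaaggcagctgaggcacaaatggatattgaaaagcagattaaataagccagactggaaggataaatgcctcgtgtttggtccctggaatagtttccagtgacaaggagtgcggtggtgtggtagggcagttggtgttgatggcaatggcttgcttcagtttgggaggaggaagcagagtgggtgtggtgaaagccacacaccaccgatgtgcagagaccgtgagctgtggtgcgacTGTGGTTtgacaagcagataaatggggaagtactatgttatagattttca
Inpp5d, intron, chr1:87623893-87624192: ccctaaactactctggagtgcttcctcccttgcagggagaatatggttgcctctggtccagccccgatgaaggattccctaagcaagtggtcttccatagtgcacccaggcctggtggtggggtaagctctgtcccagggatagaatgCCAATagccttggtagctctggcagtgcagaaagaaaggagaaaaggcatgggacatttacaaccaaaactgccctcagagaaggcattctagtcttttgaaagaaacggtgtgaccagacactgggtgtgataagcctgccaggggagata
Pik3cd, intron, chr4:149665697-149665996: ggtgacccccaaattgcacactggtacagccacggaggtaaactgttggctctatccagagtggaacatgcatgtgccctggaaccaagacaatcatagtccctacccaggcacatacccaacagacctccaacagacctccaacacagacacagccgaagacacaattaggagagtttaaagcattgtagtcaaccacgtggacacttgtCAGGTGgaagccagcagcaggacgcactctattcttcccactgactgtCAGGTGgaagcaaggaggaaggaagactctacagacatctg
The Pik3r1 window held 1 E-box and the Pik3cd window 2, and 21.9% of 8187 such windows around H3K4me1 regions in at least 2 libraries held 1 or more. The Pik3ap1 and Rptor windows each held a RUNX match (8.84% of windows), and the Inpp5d window held the NFY letters (31.1%). None of the 5 windows had the letters for PU.1 (5.36%), the octamer (3.63%), the GC box (4.65%) or CRE (0.22%), and no match overlapped another. The windows held 2 to 5 CpGs, where the median of all such windows was 3.

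Akt1, the kinase downstream of PI3K (chromosome 12, minus strand, 21.1 kb), was the only member at which H3K4me3 covered none of the TSSs counted. It had promoter H3K4me3 peaks in all 3 libraries (4, 4 and 5), and 7.7% of all genes likewise had promoter H3K4me3 in all 3 libraries with no TSS covered in any, while 38.4% of genes had a TSS covered in all 3. The start at 112674276 fell in a gap between 2 peaks, the nearer of them 190, 280 and 227 bp away. The gap measured 996, 1087 and 1038 bp. The start of a further transcript of the comprehensive annotation, at 112674884, was covered in all 3 libraries by the peak on the upstream side.

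Both RefSeq promoters of Akt1 are shown, as the uncovered start lies inside the gap and the covered start beside it (minus strand, capitals mark CpGs).
Akt1 covered start, chr12:112674855-112675134: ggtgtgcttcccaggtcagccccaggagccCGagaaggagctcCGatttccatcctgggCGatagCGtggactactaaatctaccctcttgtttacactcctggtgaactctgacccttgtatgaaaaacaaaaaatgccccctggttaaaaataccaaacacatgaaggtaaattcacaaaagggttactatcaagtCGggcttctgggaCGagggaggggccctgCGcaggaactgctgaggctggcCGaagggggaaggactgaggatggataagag
Akt1 uncovered start, chr12:112674247-112674526: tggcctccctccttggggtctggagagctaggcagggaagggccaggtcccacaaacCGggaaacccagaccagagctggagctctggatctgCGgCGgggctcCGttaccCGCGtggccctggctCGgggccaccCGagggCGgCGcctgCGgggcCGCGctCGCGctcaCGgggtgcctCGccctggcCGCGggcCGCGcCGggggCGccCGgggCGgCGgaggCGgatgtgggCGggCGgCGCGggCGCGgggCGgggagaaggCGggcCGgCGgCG
The uncovered window held 38 CpGs and was 79.6% G and C, with 5 matches to the GC box, of which 2 overlapped each other, and 96.4% of RefSeq promoters held fewer CpGs. The covered window held 8 CpGs and was 52.1% G and C. The whole gap was 77.0% to 78.5% G and C. Among RefSeq starts with H3K4me3 within 5 kb in all 3 libraries, the share covered in all 3 was lower at both ends of base composition. It was 38.1% below 45% G and C, 57.2% from 45% to 55% and 73.4% (of 5355 starts) from 55% to 65%. From 65% to 75% it was 61.4%, and at 75% or more 25.5% (of 998 starts). Starts covered in none made up 46.0% of the lowest group and 44.8% of the highest. The Pik3r1 start at 101768217 was covered at 76.8%, and the part of base composition in the Akt1 gap was not tested.

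H3K4me1 at the Akt1 promoter was a single peak in each library (265, 272 and 376 bp), but at 3 different places, so no H3K4me1 region recurred there. The gene body beyond the promoter windows held 0 peaks of either mark in all 6 libraries. Outer peaks were numerous, 6, 6 and 0 for H3K4me1 and 9, 8 and 9 for H3K4me3. Some belonged to the promoters of neighbors: outer H3K4me3 peaks in all 3 libraries lay within 5 kb of a TSS of Siva1 (26.6 kb away) or Cep170b (47.9 kb). Zbtb42, whose TSS is 4.55 kb from that of Akt1, shared promoter peaks with it, and 6 of the 8 H3K4me3 peaks near Zbtb42 were counted in the Akt1 promoter and 2 as outer. Others did not, and the region chr12:112688328-112689647, 14.7 kb upstream of Akt1, had the highest H3K4me3 fold enrichment at the 9 genes (up to 11.9) and H3K4me1 in 2 of 3 libraries.

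Mtor, the kinase of both mTOR complexes (chromosome 4, plus strand, 109 kb), was nearly bare of H3K4me1 despite its length. H3K4me1 peaks of any zone numbered 0, 1 and 1. Neither its promoter H3K4me1 cover nor its H3K4me1 body peaks were low, since the median of all genes was 0 for each. The means of Mtor were above those of 65.2% and 78.7% of genes. Its mean number of outer H3K4me1 peaks was 0, where the median of all genes was 0.333. H3K4me3 peaks numbered 3 in each library, of which 2 were at the promoter. The peak over the TSSs measured 2339, 1508 and 1359 bp. Gene body cover was 195, 0 and 20 bp for H3K4me3 and 0, 226 and 0 bp for H3K4me1.

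Rptor, which encodes raptor of mTOR complex 1 (chromosome 11, plus strand, 297 kb), had 1 promoter H3K4me3 peak in each library (1991, 2411 and 1386 bp) and most of its H3K4me1 in an intron. H3K4me1 body peaks numbered 3, 6 and 2, and H3K4me3 body peaks 9, 8 and 6. Recurrent peaks of both marks met 35.9 to 42.3 kb into the gene. There the H3K4me3 region chr11:119638162-119642048 was present in 3 of 3 libraries, and the H3K4me1 regions chr11:119638884-119639309 and chr11:119639966-119640398 within it in 2 of 3.

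A further Rptor region, 13.8 kb upstream at chr11:119589056-119589666, carried H3K4me1 and H3K4me3 in all 3 libraries of each mark. Its H3K4me1 fold enrichment was 11.9, 3.66 and 5.47, with 16, 6 and 7 fragments, so that replicate 1 stood well above the other 2. The region chr11:119862873-119864330, 260.5 kb into the gene, had H3K4me3 in 3 of 3 libraries and H3K4me1 in none.

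Tsc1 and Tsc2, which encode the complex that restrains mTOR complex 1, had few H3K4me1 peaks. At Tsc1 (chromosome 2, plus strand, 49.9 kb) H3K4me3 covered 3 of 4 TSSs in all 3 libraries, and the start at 28658567 was covered in none. Promoter H3K4me1 was 204, 316 and 0 bp, and body H3K4me1 490, 0 and 0 bp. Outer H3K4me1 was found in all 3 libraries, but each library had 1 such peak at the promoter of Gfi1b, a gene 19.3 kb upstream, and replicate 3 had 1 more. Ak8 and Spaca9 also lent promoter H3K4me3 to the Tsc1 surroundings in all 3 libraries.

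At Tsc2 (chromosome 17, minus strand, 36.8 kb) a single H3K4me3 peak of 1550, 1401 and 1924 bp covered all 5 TSSs in all 3 libraries. The gene shares this peak with Nthl1, whose TSS is 52 bp away on the opposite strand. No H3K4me1 peak was called at its promoter or body in any library, and its only outer peak, in replicate 1, lay at the promoter of Npw. Outer H3K4me3 peaks numbered 4, 7 and 7, and those of all 3 libraries included peaks at the promoters of Npw, Slc9a3r2 and Zfp598.

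**Figure D4:**
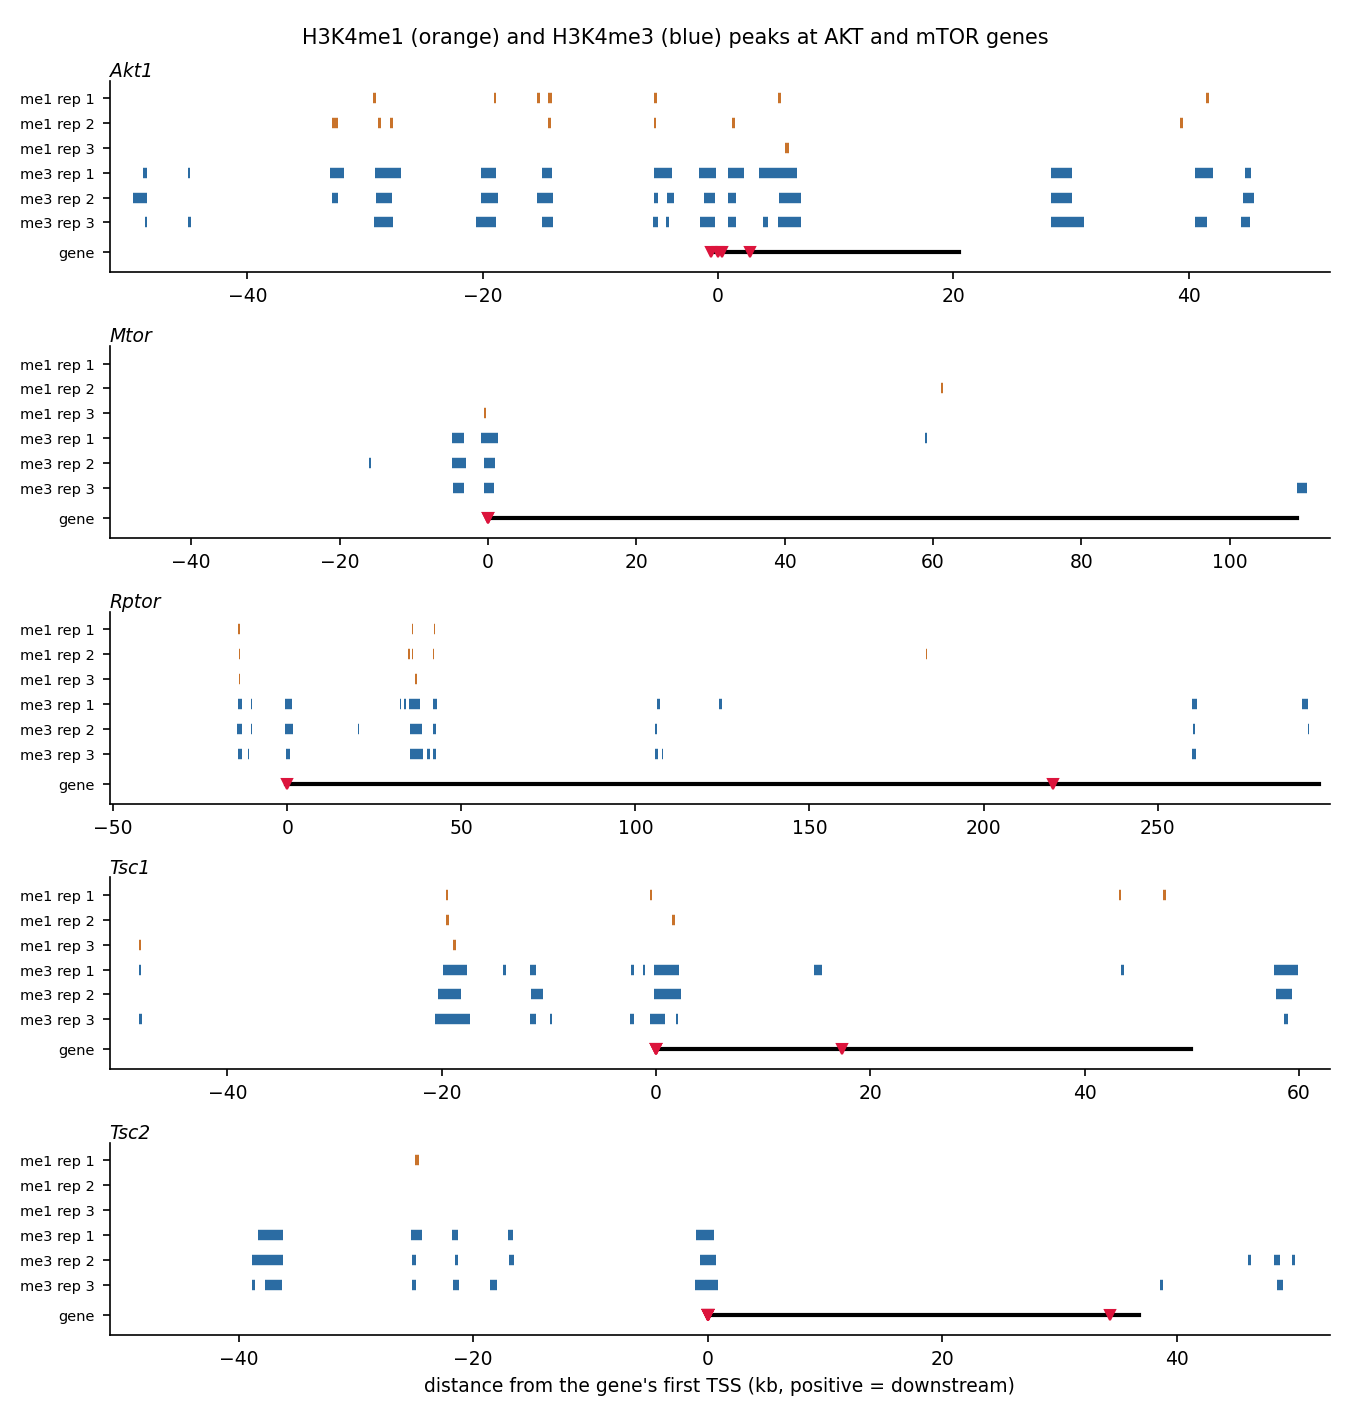
Position of H3K4me1 (orange, upper 3 rows) and H3K4me3 (blue, lower 3 rows) peaks in each library around Akt1, Mtor, Rptor, Tsc1 and Tsc2, by distance from the first TSS in kb, drawn as in the map of the PI3K genes. The Akt1 start sits in a gap between H3K4me3 peaks, Mtor and Tsc2 are nearly free of H3K4me1, and Rptor has peaks of both marks 35.9 to 42.3 kb into the gene.

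Gene body peaks present in all 3 libraries were found at 5 of 9 genes for each mark, against 6.64% of all genes for H3K4me1 and 19.3% for H3K4me3. Only 15922 of the 21864 genes had at least 1 kb of body outside the promoter windows. The 9 genes are long (median 87655 bp, against 17363 bp for all genes), and the part of length in these shares was not tested. The 5 genes were the same for both marks (Pik3cd, Pik3r1, Pik3ap1, Inpp5d and Rptor). H3K4me3 covered more of the body than H3K4me1 in every pair of libraries at these 5, against 18.7% of all genes. These were 4087 genes, where 4222 had gene body H3K4me3 in all 3 libraries, and 7 genes showed the reverse. Here too the comparison adds little to the presence of H3K4me3 peaks. Each of the 5 had the smallest exact permutation p = 0.1 and an adjusted p of 0.534 over 21864 genes. With the 10000 best peaks of each library only 1 of the 5 kept the higher H3K4me3 cover, and the difference turned at Pik3cd, Pik3r1 and Rptor. This cut keeps a smaller part of the H3K4me3 lists than of the H3K4me1 lists. In order of H3K4me3 body cover, Pik3ap1 (32637 ± 3574 bp, SD, n = 3) and Inpp5d (21722 ± 3671 bp) each stood apart from the next, Rptor (8284 ± 1997 bp) and Pik3r1 (5664 ± 752 bp) overlapped, and Pik3cd (1628 ± 450 bp) came after. Akt1 and Tsc2 had no body cover, and Mtor and Tsc1 had no more than 259 bp of H3K4me3 in any library.

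Outer H3K4me1 in all 3 libraries was found at 4 of 9 genes (Pik3r1, Pik3ap1, Rptor and Tsc1), against 20.4% of all genes, and outer H3K4me3 at 8 of 9, all but Mtor, against 60.3%. At Tsc1 it lay at the Gfi1b promoter, whereas 0 outer peaks of Pik3r1, Pik3ap1 and Rptor lay within 5 kb of the TSS of another protein-coding gene. Of all outer H3K4me3 peaks of the 9 genes, 12 of 35, 10 of 33 and 13 of 33 were at promoters of other genes. H3K4me3 covered a TSS in all 3 libraries at 8 of 9 genes, all but Akt1, against 38.4% of all genes. H3K4me1 covered no TSS of any of the 9 genes in any library. The share of all genes with a TSS under H3K4me1 is not given here, so this is not shown to be particular to the 9.

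Most H3K4me1 peaks of the pathway genes lay under H3K4me3, as did most H3K4me1 peaks of each whole library. Of 168 H3K4me1 peaks, 149 (88.7%) were overlapped by an H3K4me3 peak in at least 1 library, where the share over all H3K4me1 peaks of a library was 80.0% to 84.2%. The share was 32 of 33 in promoters, 76 of 88 in bodies and 41 of 47 further out. Of 256 H3K4me3 peaks, 132 (51.6%) were overlapped by H3K4me1, where the share over all H3K4me3 peaks of a library was 38.8% to 41.2%. Merged within each mark, the peaks formed 120 H3K4me1 regions, of which 11 were found in 3 libraries and 86 in 1, and 107 H3K4me3 regions, of which 57 were found in 3 and 38 in 1.

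Other genes of the pathway, 68 in a list by role, had promoter H3K4me3 in all 3 libraries in 65 cases and promoter H3K4me1 in all 3 in 11, against 56.2% and 6.17% of all genes. Among subunits of PI3K the 11 included Pik3ca, the p110α subunit, and Pik3cg, the p110γ subunit (2 of 7 in that group). Among upstream genes (4 of 10) they included Blnk, Syk and Cd79a, which carry or relay the B cell receptor signal. Inpp4a, a lipid phosphatase, Pdpk1, which phosphorylates AKT, and Lamtor1 and Sesn1 of nutrient sensing were also among the 11. None of 6 genes of the mTOR complexes, 3 of TSC and RHEB and 12 downstream targets had it in all 3 libraries, which is near the 6.17% of all genes. Pik3r6, a regulatory subunit of p110γ, was the only gene of the list with no promoter H3K4me3 in any library. Gene body peaks in all 3 libraries were found at 15 of 68 for H3K4me1 and 34 of 68 for H3K4me3, against 6.64% and 19.3% of all genes. The lengths of these 68 genes are not given here, and the part of length in the body shares was not tested.

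The genes most like each member were found by the Euclidean distance over 12 values, the log2 of covered bp plus 100 in the promoter and the body in 6 libraries. Nthl1 was at distance 0 from Tsc2, the 2 sharing their promoter peak, and 3183 genes lay within a distance of 2 of Tsc2. Akt1 was nearest Tpr (0.378, 262 genes within 2), Tsc1 nearest Eif4h (1.21), Pik3r1 nearest Hdac7 (1.24), Pik3ap1 nearest Sdccag8 (1.51), Mtor nearest Mtbp (1.53), Inpp5d nearest Bank1 (1.54), Rptor nearest Katnal1 (1.60) and Pik3cd nearest Blk (1.69, with no other gene within 2). The pattern around Pik3cd was thus shared with the fewest genes, and the second nearest to it was Tmem243 (2.12). The promoter window of Pik3cd was also the widest (34.8 kb), and the part of window width was not tested. Blk and Bank1 are genes of B cell receptor signaling, but the roles of the other nearest genes are not given here. Bank1 was little nearer to Inpp5d than Sdccag8 was (1.54 against 1.61), with 10 genes within 2. Whether genes of B cell receptor signaling were more frequent among near genes was not tested.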

How the data were processed

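Peak lists of 6 Mint-ChIP libraries were analysed, 3 per mark, and grouped by mark from the titles. The submitters' processing notes name BWA, Picard, HOMER, Genrich and mm10 without roles or versions. The lists have the MACS2 layout, were called per library, and the caller, its settings and control are not given in the sources used here. In the deposited files the authors' fold enrichment is a linear ratio of pileup to local background, with −log10 p-values and −log10 q-values beside it. The deposited score column was not used. The lowest −log10 q was 1.31 to 1.32 for H3K4me1 and 1.02 to 1.14 for H3K4me3, so thresholds differed too.

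Coordinates were read as GRCm38 (mm10), with 41451 TSSs of protein-coding transcripts of the GENCODE M21 basic annotation. Overlap needed 1 bp. The promoter window was the union of 5 kb either side of all TSSs of a gene. Peaks of a mark that touched were merged into regions. Covered lengths were compared with a two-sided exact permutation test over all 20 assignments of libraries, run for 21864 genes with Benjamini-Hochberg adjustment. The scripts were tested on simulated data.

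Read totals were not used here, and peak heights served as a measure of depth. Fold enrichment and −log10 p together gave whole fragments at the summit for 99.99% to 100% of H3K4me1 peaks (tolerance 0.002 in −log10 p). For broad peaks, whose values are averages, this held for 8.36% to 9.89%, so no heights are given.

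Replicate numbers are shared between marks, and their meaning is not stated. Deviations from group means of same-numbered libraries correlated at 0.171, 0.0652 and 0.0381 for promoter cover and at 0.652, 0.345 and 0.396 for gene body cover over 21864 genes. A sign-flip test over the 3 pairs cannot go below 0.25.

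The named genes were the members, neighbors whose promoter held peaks of a member in all 3 libraries of a mark, the nearest gene by pattern, and pathway genes with promoter H3K4me1 in all 3 libraries or without promoter H3K4me3. A few genes that met this rule are not reported here. Members and lists were chosen with earlier results of these data known. Alternatives were a stricter q-value, the 10000 best peaks, merging, midpoints, 1 TSS per gene, 1 kb, body peaks counted as outer, each library left out, the replicate block, and the comprehensive TSS set, which was chosen after seeing the data. Promoter sequences came from RefSeq (GRCm38.p6), where 9 of 9 genes matched. Versions were Python 3.11.15, numpy 2.4.6, pandas 2.3.3, scipy 1.17.1 and matplotlib 3.10.9.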

Additional observations from a re-analysis of the deposited data

How the results depend on the processing

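Of 108 recalculated values for the 8 main results, 85 stayed close to the value reported and 23 moved, and none reversed. Many of the 85 could not move, because a count for a mark does not depend on libraries of the other mark. Leaving a library out could only keep or raise the counts that ask for every library. All 8 are counts and cannot reverse, so the tally is no measure of stability. With −log10 q of at least 5, H3K4me1 gene body peaks fell from 29.3 to 6 per library, outer H3K4me1 from 15.7 to 3.33, H3K4me3 body peaks from 33.3 to 10 and outer H3K4me3 from 33.7 to 13.3, while promoter H3K4me1 in every library was left at 1 gene and higher H3K4me3 body cover at 3 genes. With the 10000 best peaks these became 18.7, 8.67, 3.67, 9, 3 and 1, and promoter H3K4me3 in every library and higher promoter cover each held at 5 genes. Merging peaks within 1 kb gave 28.3 H3K4me3 body and 31.7 outer peaks. With 1 TSS per gene, outer H3K4me3 was 26 and promoter H3K4me1 held at 3 genes. At 1 kb in place of 5 kb, H3K4me1 body peaks were 37.3, outer H3K4me3 peaks 37.7 and promoter H3K4me1 held at 0 genes. Counting body peaks at 5 to 50 kb gave 40.3 for H3K4me1 and 60 for H3K4me3. The cause of these changes was not tested, beyond the smaller number of peaks or the changed window that each alternative sets.

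For single genes, 10 of 252 values reversed, all in the gene body difference (H3K4me3 minus H3K4me1). With the 10000 best peaks it was -212.3 bp at Pik3cd, -311.7 bp at Pik3r1 and -436 bp at Rptor. At Mtor (-3.67 bp) it was 109.3 bp at 1 kb and -65.3 to 71.7 bp over the 6 fits with a library left out, above 0 without H3K4me1 replicate 2 (71.7 bp), H3K4me3 replicate 2 (32.2 bp) or H3K4me3 replicate 3 (22.2 bp). At Tsc1 (-77 bp) it was 158 bp with 1 TSS per gene, 930 bp at 1 kb and -163 to 86.3 bp with a library left out, the last without H3K4me1 replicate 1. With the replicate block, higher H3K4me3 cover held at 9 genes in promoters and 5 in bodies, as without it, each of these genes at the smallest sign-flip p of 0.25 (exact test, n = 3 pairs). Not every library correlated best with its own number, since H3K4me1 replicate 3 did so with H3K4me3 replicate 2 in gene bodies (0.433). H3K4me1 peaks rested on a median of 6 fragments at the summit, and 86 of 120 regions were seen in 1 library, so a region missing from a library was not shown to be unmarked.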
